A study of Mus musculus with 6 samples.

Results

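The 7 genes described here carry the signals by which marrow stromal cells and osteoblasts control osteoclasts, together with the receptors through which bone hormones act on those cells. They were named as a list by their known roles, with no threshold on measured values but with earlier results of these data known. Tnfrsf11b, Tnfsf11, Csf1 and Il34 stand on the signalling side, and Pth1r, Vdr and Esr1 are the hormone receptors. All 7 were measured, each by 1 probe set that the platform annotation assigns to that gene alone, among 19938 tested genes.

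Osteoclasts, the cells that dissolve bone, form from blood cell precursors that need signals from neighbouring stromal cells. M-CSF, the product of Csf1, and interleukin-34, the product of Il34, act through the same receptor, CSF1R, and keep the precursors alive. RANKL, the product of Tnfsf11, then binds RANK on the precursors and drives them to become osteoclasts, while osteoprotegerin, the secreted decoy receptor encoded by Tnfrsf11b, captures RANKL and blocks that step. Parathyroid hormone, active vitamin D and estrogen, acting on osteoblast-lineage cells through the products of Pth1r, Vdr and Esr1, are known to shift the balance between RANKL and osteoprotegerin.

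The samples were bone marrow stromal cells (BMSCs) from mice with the microRNA gene Mir188 knocked out (KO188, 3 arrays) and from wild-type mice (WT, 3 arrays). Both groups had the C57BL/6 background, an age of 6 months and the same osteogenic medium, with ascorbate-2-phosphate at 0.05 mM, beta-glycerophosphate at 10 mM and dexamethasone at 100 nM. The labels give neither the kind of knockout allele nor whether each array stands for its own mouse or culture, so p-values measure only the spread between these samples, which may be technical. No label names a batch holding both groups, and genotype and a culture difference between the groups cannot be told apart. Array medians ran from 7.43 to 7.50 on the log2 scale, and the number of arrays limits the precision.

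The microRNA of the knocked-out gene is shown by its 2 mature forms, because their seeds (bases 2 to 8, in capitals) set which messages they pair with. Both come from chromosome X, minus strand, at chrX:7248031-7248051 for the 5p form and chrX:7247992-7248012 for the 3p form (RefSeq, GRCm38.p6), and their seeds differ.
mmu-miR-188-5p: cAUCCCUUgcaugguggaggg
mmu-miR-188-3p: cUCCCACAugcaggguuugca
The Mir188 probe set read 7.03, 7.13 and 7.09 in KO188 and 7.15, 7.13 and 7.16 in WT, a log2 difference of -0.06 (SE 0.034, limma adjusted p = 0.235). Neither the deleted stretch nor the stretch that the probes read was known here, so the value checks nothing about the genotype labels.

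Osteoprotegerin RNA was 1.92-fold higher in KO188 cells, while the difference in RANKL RNA did not pass the test. The estrogen receptor gene Esr1, the vitamin D receptor gene Vdr and, by a small margin, the M-CSF gene Csf1 were also higher. Of the 7 genes 4 rose, 0 fell and 3 did not pass, by limma with a threshold of 0.05 for adjusted p-values; at an unadjusted p under 0.05 the counts were 4 higher and 1 lower. Over all tested genes 29.8% were called, 13.3% higher and 16.5% lower, so calls were common in this comparison and the share among 7 genes is a description. With each array centred on its median, higher calls made up 30.8% of all calls, against 44.5% on the deposited values, and small rises therefore depend on the scaling.

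**Figure D1:**
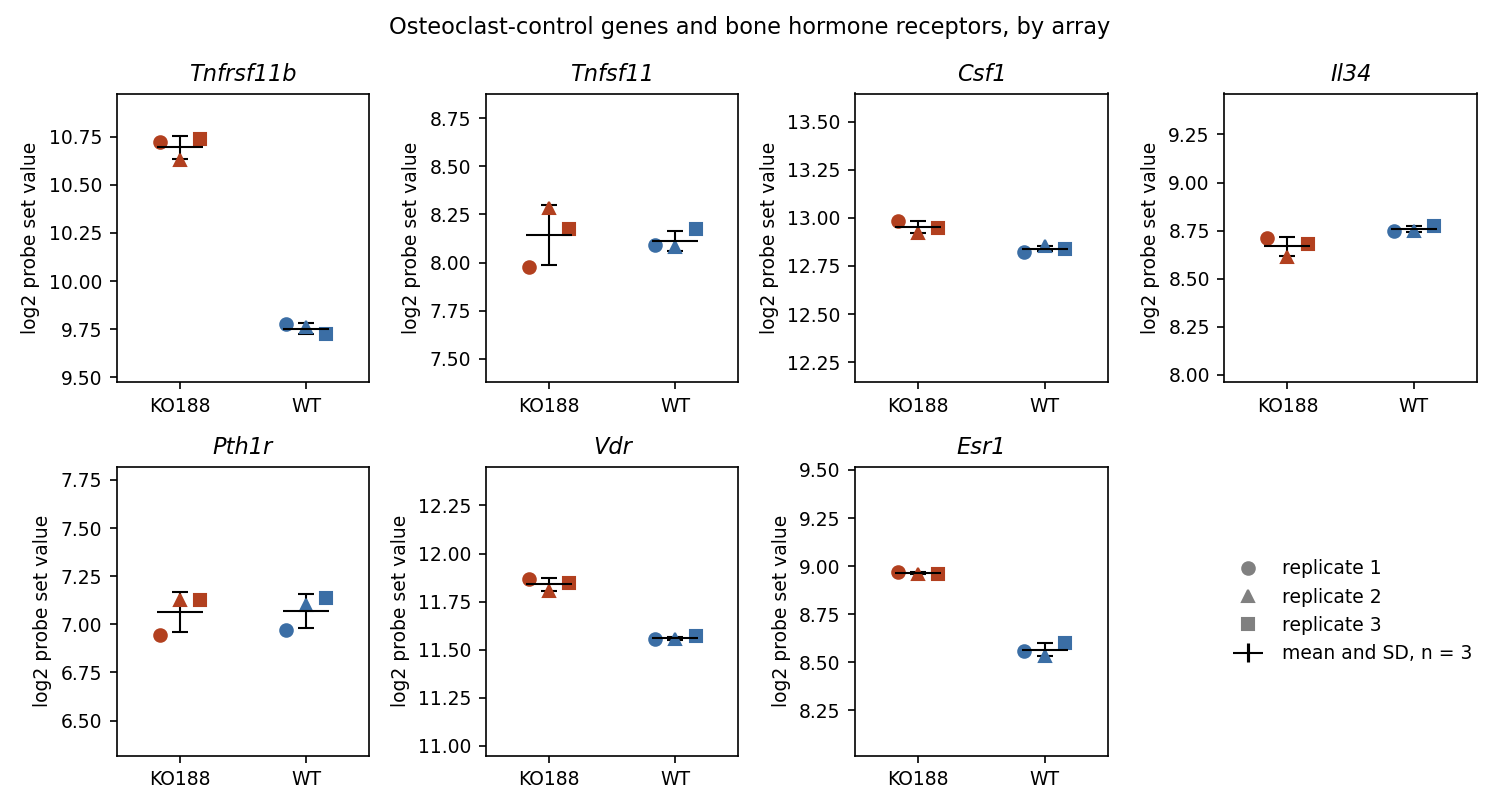
Log2 probe set value of each of the 7 genes on each array, KO188 left and WT right in every panel, with bars for the mean and SD (n = 3). Every panel spans the same range of log2 units around its own centre; the groups stand apart for Tnfrsf11b, Csf1, Il34, Vdr and Esr1 and overlap for Tnfsf11 and Pth1r.

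**Figure D2:**
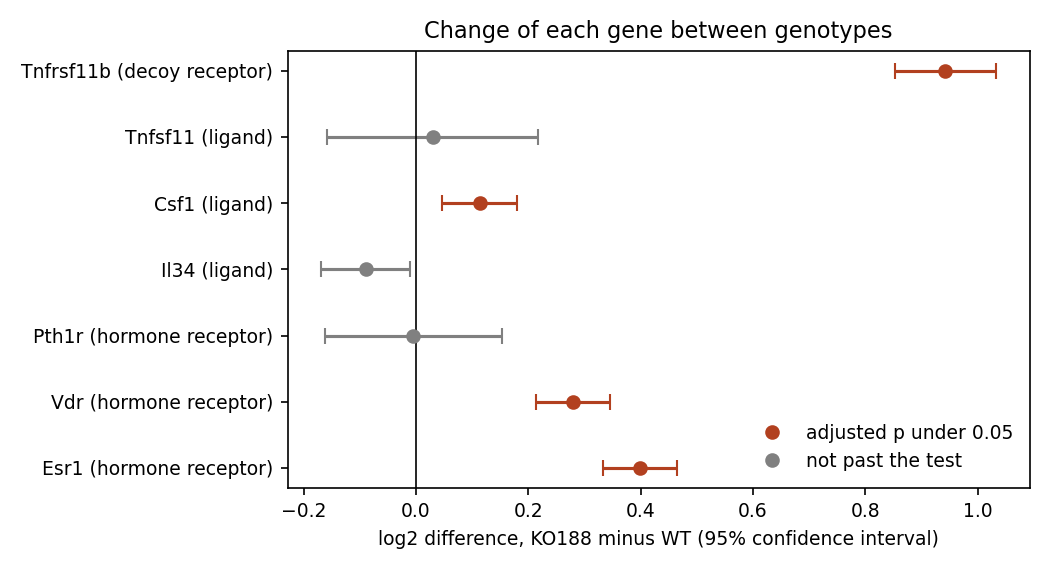
Log2 difference, KO188 minus WT, of each gene with its 95% confidence interval from limma; red marks an adjusted p under 0.05. Tnfrsf11b lies farthest from 0, at 0.94, and the intervals of Tnfsf11 and Pth1r include 0.

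Tnfrsf11b had 10.72, 10.63 and 10.74 in KO188, against 9.78, 9.76 and 9.72 in WT, in log2 units of the probe set. The lowest KO188 array lay far above the highest WT array, and the spread within either group was small beside that gap. The group means were 10.70 ± 0.06 in KO188 and 9.75 ± 0.03 in WT (SD, n = 3 each). The log2 difference was 0.94 (SE 0.038, limma adjusted p = 9.01e-06), a fold of 1.92 with a 95% confidence interval from 1.81 to 2.05. Among the 19938 tested genes its rise ranked at place 239. In RNA from a whole culture, more of the cells that make a transcript and more RNA per cell cannot be told apart, and this holds for every gene below.

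Tnfsf11, the gene of RANKL, had 7.97, 8.28 and 8.17 in KO188, against 8.09, 8.08 and 8.17 in WT. KO188 replicate 1 was the lowest of the 6 arrays and KO188 replicate 2 the highest, so the KO188 arrays spanned the WT values. The log2 difference was 0.03 (SE 0.078, limma adjusted p = 0.825), and its 95% confidence interval from -0.16 to 0.22 corresponds to folds from 0.896 to 1.16. The sign of the difference was not stable: it was -0.04 without KO188 replicate 2, -0.01 with median centring and -0.03 with quantile normalization. RANK, its receptor on osteoclast precursors, is encoded by Tnfrsf11a, whose probe set averaged 7.20 in KO188 and 7.17 in WT (adjusted p = 0.648).

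The log2 value of Tnfsf11 minus that of Tnfrsf11b was read on each array, because the ratio of RANKL to osteoprotegerin is the usual summary of the drive to form osteoclasts. The 2 values come from different probe sets, so their difference has no meaning on its own and only its shift between groups does. It was -2.75, -2.34 and -2.56 in KO188, against -1.69, -1.68 and -1.55 in WT. All KO188 arrays lay below all WT arrays, and the KO188 arrays were more widely spread. The means were -2.55 ± 0.20 in KO188 and -1.64 ± 0.08 in WT (SD, n = 3 each), a shift of -0.91 on the log2 scale, or 0.531 times the WT ratio. The shift is the log2 difference of Tnfsf11, 0.03, minus that of Tnfrsf11b, 0.94, and it was given no test of its own.

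**Figure D3:**
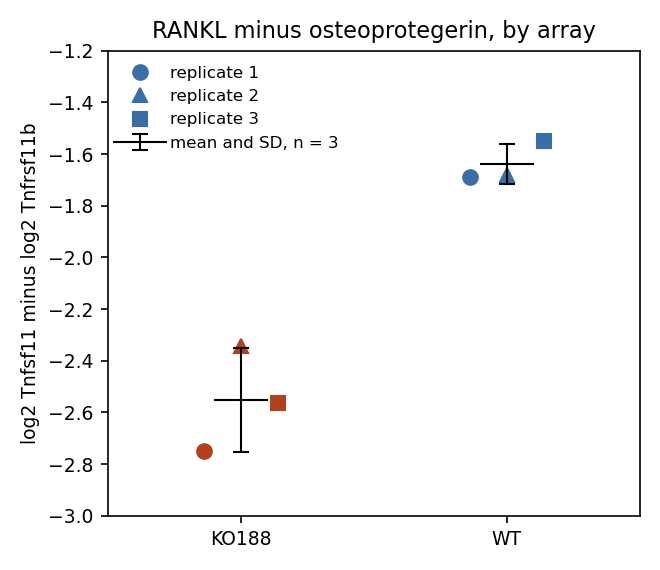
Log2 value of Tnfsf11 minus log2 value of Tnfrsf11b on each array, KO188 left and WT right, with bars for the mean and SD (n = 3). The KO188 arrays lie between -2.75 and -2.34, all below the WT arrays.

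The ligands of CSF1R moved little. Csf1 had 12.99, 12.92 and 12.95 in KO188, against 12.82, 12.85 and 12.84 in WT. The groups did not overlap, but the lowest KO188 array was only 0.07 above the highest WT array. The log2 difference was 0.11 (SE 0.028, limma adjusted p = 0.0219), a fold of 1.08 with a 95% confidence interval from 1.03 to 1.13. The adjusted p exceeded the threshold with each array centred on its median (0.07, adjusted p = 0.179), and also without WT replicate 1 (adjusted p = 0.0763), WT replicate 3 (0.0567) or KO188 replicate 3 (0.0547).

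Il34 had 8.71, 8.61 and 8.68 in KO188, against 8.75, 8.75 and 8.78 in WT. All KO188 arrays were lower, with KO188 replicate 2 the lowest. The log2 difference of -0.09 (SE 0.033, 95% confidence interval -0.17 to -0.01) had a limma adjusted p of 0.0905 and did not pass. It did pass with median centring (-0.13, adjusted p = 0.0413), with quantile normalization (-0.14, adjusted p = 0.0177) and with the dimmer genes left out (adjusted p = 0.0302). Non-overlap such as this was common: the groups were separate for 41.5% of all tested genes and for 5 of these 7.

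**Figure D4:**
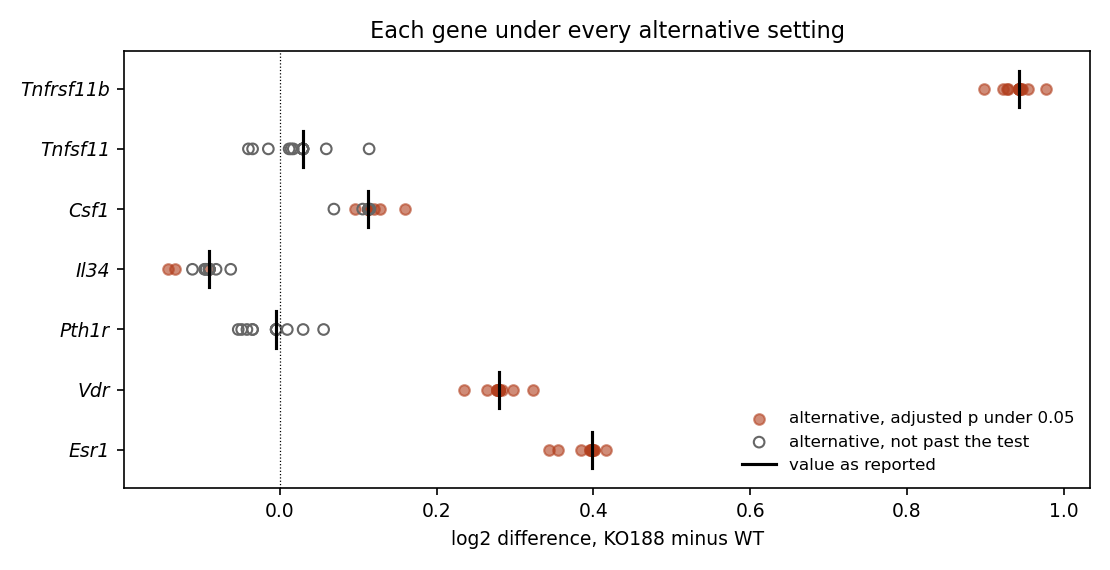
Log2 difference, KO188 minus WT, of each gene under every alternative setting (points, filled where the adjusted p is under 0.05) and as reported (vertical line). The points of Tnfrsf11b, Vdr and Esr1 are all filled and far from 0, those of Csf1 and Il34 are mixed, and those of Tnfsf11 and Pth1r lie on both sides of 0.

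Of the 3 hormone receptor genes 2 rose. Esr1, which encodes estrogen receptor alpha, had 8.97, 8.96 and 8.96 in KO188, against 8.56, 8.54 and 8.60 in WT. The KO188 arrays were nearly identical and all above WT. The log2 difference was 0.40 (SE 0.027, limma adjusted p = 9.71e-05), a fold of 1.32 with a 95% confidence interval from 1.26 to 1.38. KO188 replicates 2 and 3 hold the same deposited value for Esr1. The SD was 0.0061 in KO188 and 0.033 in WT.

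Vdr, the receptor gene of active vitamin D, had 11.87, 11.80 and 11.84 in KO188, against 11.55, 11.56 and 11.57 in WT. Here too no KO188 array came near the WT values. The log2 difference was 0.28 (SE 0.027, limma adjusted p = 0.00046), a fold of 1.21 with a 95% confidence interval from 1.16 to 1.27.

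Pth1r, the receptor gene of parathyroid hormone and its related peptide, had 6.94, 7.13 and 7.13 in KO188, against 6.97, 7.10 and 7.14 in WT. Replicate 1 was the lowest in each group and the groups overlapped throughout. The log2 difference was -0.0044 (SE 0.066, limma adjusted p = 0.973), with a 95% confidence interval from -0.16 to 0.15. Its sign turned without KO188 replicate 1 (0.06) and without WT replicate 2 (0.01) or 3 (0.03). To judge dim signals, a guide level of 6.72 was taken from 1194 genes for smell and pheromone receptors, which these cells should not use: 95% of them averaged less. All 7 genes exceeded the guide on all 6 arrays, Pth1r by the smallest margin, and changes close to it are understated.

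RefSeq promoter windows were at hand for 5 of the 7 genes, Tnfsf11, Csf1, Pth1r, Vdr and Esr1. The 250 bases before the start are shown for Csf1, Vdr and Esr1, whose RNA rose together, and for Tnfsf11, whose RNA did not pass, with motif matches in capitals. They lie at chr3:107760470-107760719 (Csf1, minus strand), chr15:97908297-97908546 (Vdr, minus strand), chr10:4611739-4611988 (Esr1, plus strand, the first of 2 windows) and chr14:78308044-78308293 (Tnfsf11, minus strand), all in GRCm38.p6 and printed 5′ to 3′ along the gene.
Csf1: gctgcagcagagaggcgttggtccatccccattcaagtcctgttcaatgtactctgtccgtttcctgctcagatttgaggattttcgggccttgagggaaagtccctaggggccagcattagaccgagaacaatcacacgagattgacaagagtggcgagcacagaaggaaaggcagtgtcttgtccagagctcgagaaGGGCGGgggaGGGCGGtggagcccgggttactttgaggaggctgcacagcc
Vdr: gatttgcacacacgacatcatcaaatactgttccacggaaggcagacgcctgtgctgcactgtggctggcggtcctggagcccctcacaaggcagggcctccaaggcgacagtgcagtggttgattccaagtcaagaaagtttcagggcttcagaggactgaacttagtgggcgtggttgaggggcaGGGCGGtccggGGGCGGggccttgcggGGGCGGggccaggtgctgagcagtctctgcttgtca
Esr1: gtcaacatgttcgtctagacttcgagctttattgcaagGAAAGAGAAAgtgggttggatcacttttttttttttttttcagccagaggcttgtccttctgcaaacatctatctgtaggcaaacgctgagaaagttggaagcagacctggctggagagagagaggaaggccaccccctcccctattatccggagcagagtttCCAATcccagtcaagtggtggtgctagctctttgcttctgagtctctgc
Tnfsf11: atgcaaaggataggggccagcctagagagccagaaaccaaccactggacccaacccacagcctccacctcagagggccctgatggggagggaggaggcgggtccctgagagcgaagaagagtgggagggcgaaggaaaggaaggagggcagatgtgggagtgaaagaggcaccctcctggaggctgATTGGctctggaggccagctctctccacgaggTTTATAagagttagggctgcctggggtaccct
On both strands 8 motifs were searched: the interferon-stimulated response element (a pair of GAAA with any 2 bases between), the interferon gamma-activated site TTCNNNGAA, the cyclic AMP response element TGACGTCA, the AP-1 site TGANTCA, the estrogen response element (GGTCA and TGACC with any 3 bases between), the TATA box TATAAA, the GC box GGGCGG and the CCAAT box. The first pair of motifs share the letters GAA and can overlap.

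The windows of Csf1 and Vdr hold GC boxes only, with first bases at -51 and -41 for Csf1 and at -63, -52 and -36 for Vdr, counted from -1 for the base just before the start. The Tnfsf11 window holds a TATA box at -32 and a CCAAT box at -64. The Esr1 window holds an interferon-stimulated response element at -212 and a CCAAT box at -49, and the second Esr1 window holds an interferon gamma-activated site at -188. Among all RefSeq windows of this length, 32.7% hold a GC box, 33.9% a CCAAT box, 12.4% a TATA box, 7.02% an interferon gamma-activated site and 2.98% an interferon-stimulated response element. The cyclic AMP response element, the AP-1 site and the estrogen response element had no match in any window of these genes, against 1.55%, 6.75% and 0.0639% of all windows. These matches describe letters only.

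Other genes of the same pathways were read on 12 lists, with 243 different genes measured, of which 61 rose, 41 fell and 141 did not pass; the share called was 42%, against 29.8% of all tested genes. The lists were drawn up by known roles but with earlier results of these data in view, so these shares describe the listed genes and are no evidence of enrichment. The median log2 difference of the 243 was 0.01, against -0.01 over all tested genes.

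**Figure D5:**
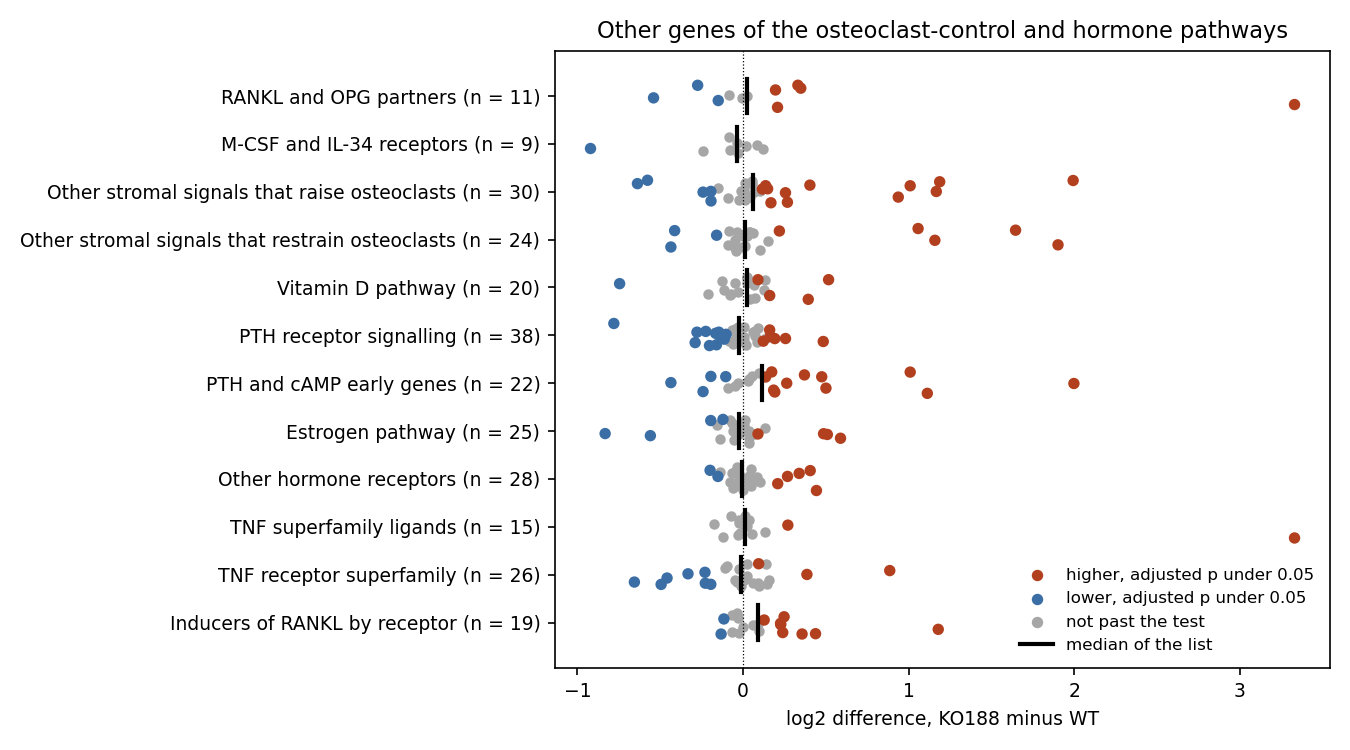
Log2 difference, KO188 minus WT, of every measured gene on the 12 lists (points, red higher and blue lower at an adjusted p under 0.05, grey not past the test), with a black line at each list's median. The medians lie near 0, and Tnfsf10, at 3.33, is the point farthest to the right on its lists.

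Among the partners of RANKL and osteoprotegerin 5 of 11 rose and 3 fell. The largest difference was that of Tnfsf10, which encodes TRAIL, the death ligand that osteoprotegerin also binds: it had 8.64, 8.58 and 8.59 in KO188, against 5.28, 5.18 and 5.35 in WT (log2 difference 3.33, limma adjusted p = 7.71e-08). Its WT level lay below 6.72, so the fold of 10.1 is inexact. Mmp14 (0.35), Lgr4 (0.33), Traf6 (0.21) and Traf2 (0.20) also rose; LGR4 is a second receptor for RANKL, TRAF6 the adaptor that carries the RANK signal, and MMP14 a protease that can shed RANKL from the cell surface. The 3 that fell were all ADAM protease genes, Adam19 (-0.54), Adam10 (-0.27) and Adam17 (-0.15). The Adam17 call was lost when KO188 replicate 2, KO188 replicate 3, WT replicate 1 or WT replicate 3 was dropped (adjusted p = 0.0559 to 0.0658), and that of Traf2 without any 1 of the 6 arrays (0.0598 to 0.136) or with median centring.

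On the list drawn up around the receptors of M-CSF and interleukin-34, 1 of 9 genes fell and 0 rose by limma. At an unadjusted p under 0.05 the counts were 3 lower and 0 higher. The list also holds Csf2, Csf3, Csf2ra, Csf2rb, Csf2rb2 and Csf3r, genes of other colony-stimulating factors and their receptors, so its counts are not those of M-CSF and interleukin-34 receptors alone. Ptprz1, a phosphatase gene whose product also binds interleukin-34, fell to 6.24 ± 0.10 in KO188, against 7.17 ± 0.20 in WT (SD, n = 3 each; log2 difference -0.92, adjusted p = 7.92e-04); the KO188 level lay below the guide, so the size is inexact. Csf1r averaged 6.25 in KO188 and 6.29 in WT, below the guide on all 6 arrays. Leaving out WT replicate 2 gave 2 higher calls on this list in place of 0, and median centring gave 3 lower calls in place of 1.

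Of 30 genes listed here as other stromal signals that favour osteoclasts 12 rose and 5 fell, with a median of 0.06. Membership does not settle the direction in which each gene acts, and S1pr1 encodes a receptor, not a signal. Il15 rose by 1.99, the chemokine gene Ccl5 by 1.19, S1pr1, a receptor gene for sphingosine-1-phosphate, by 1.17, and Il6, a cytokine gene that raises RANKL in stromal cells, by 1.01. Among the genes that fell were Fgf2 (-0.64), a growth factor gene, and Ptgs2 (-0.19), the gene of the inducible cyclooxygenase that makes prostaglandins. Il11, another RANKL-raising cytokine gene, averaged 6.90 in KO188 and 6.86 in WT (adjusted p = 0.721).

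Of 24 signals listed here as restraining osteoclasts 5 rose and 3 fell, with a median of 0.01. The list does not settle the direction in which each member acts, that of Gas6 included. Il1rn, which encodes the interleukin-1 receptor antagonist, rose by 1.90, Gas6 by 1.65, Ifnb1, the interferon beta gene, by 1.16, Lgals9 by 1.06 and Sfrp1 by 0.22. The WT level of Ifnb1, 6.32, was below the guide. Efnb2 (-0.44), Tgfb1 (-0.41) and Sema3a (-0.16) fell; their products, ephrin-B2, TGF-beta1 and semaphorin 3A, all take part in signalling between bone cells. An interferon response accompanied these changes: all 17 measured genes of a 20-gene interferon list rose, with a median of 2.41, and the mean level of the list ran from 12.08 to 12.09 over the KO188 arrays and from 9.34 to 9.39 over the WT arrays. Its part in the changes of the 7 genes and of these lists was not tested.

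Receptors and factors that act upstream of RANKL in stromal cells rose in 8 and fell in 2 of 19 genes, with a median of 0.09. Tlr2, a sensor of bacterial products, rose by 1.18, Lifr by 0.44, Sp7, an osteoblast transcription factor gene, by 0.36 and Il6ra by 0.25. Ptger4 (-0.13), a prostaglandin E2 receptor gene, and Il6st (-0.12), which encodes the shared signalling chain of the interleukin-6 family, fell. The Sp7 call ended without any WT array or without KO188 replicate 3 (adjusted p = 0.052 to 0.0703), that of Ptger4 when KO188 replicate 2, KO188 replicate 3, WT replicate 2 or WT replicate 3 was dropped (0.0684 to 0.0776), and that of Il6st without WT replicate 1 (0.0579) or with quantile normalization (0.0724).

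Of 20 measured genes around the vitamin D receptor 4 rose and 1 fell, a share of 25%, near the 29.8% of all genes. Cyp24a1, Gc, Bglap, Spp1, Enpp1 and Cdkn1a were listed too but not measured, so these counts do not cover them. Lrp2, which encodes the endocytic receptor megalin, fell by 0.74, while Cyp2r1, a vitamin D 25-hydroxylase gene, rose by 0.52, Klf4 by 0.39, Snw1 by 0.16 and Ncoa3 by 0.09. Cyp2r1 averaged 6.716 in KO188 and 6.199 in WT, both below the guide of 6.724, so the size of its difference is inexact. The partner receptor genes Rxra (0.06, adjusted p = 0.234) and Rxrb (0.04, adjusted p = 0.378) did not pass, and Cyp27b1, the activating hydroxylase gene, was below the guide on all arrays. The Snw1 call was lost when KO188 replicate 2, WT replicate 1 or WT replicate 2 was dropped (adjusted p = 0.0511 to 0.064), and that of Ncoa3 without any 1 of the 6 arrays (0.0557 to 0.102) or with median centring (0.314). The count of higher genes was 2 without KO188 replicate 2 or without WT replicate 1; the count of lower genes was 5 with median centring and 2 without any 1 of the KO188 arrays.

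Parathyroid hormone receptors signal through G proteins, cyclic AMP and protein kinase A. Of 38 measured genes of that chain 12 fell and 6 rose, with a median of -0.02. Pthlh, Gnas and Prkaca were listed too but not measured, so steps of the chain are missing from these counts. Prkar2b and Prkar2a, which encode regulatory subunits of protein kinase A, fell by 0.78 and by 0.29, and the adenylyl cyclase gene Adcy7 fell by 0.28. Plcb1, a phospholipase C gene, rose by 0.48, and the salt-inducible kinase genes Sik3 (0.26), Sik1 (0.19) and Sik2 (0.17) rose as well. Of 22 measured genes listed as responding to the hormone or to cyclic AMP, Vdr not counted, 11 rose and 4 fell, with a median of 0.12. The list sets neither the time nor the direction of each response. Mmp13, the collagenase gene, rose by 1.999, Rgs2, a brake on G protein signals, by 1.11, Il6 by 1.01 and Dusp1, which dexamethasone also induces, by 0.50. The WT levels of Mmp13 (6.65) and Rgs2 (6.59) were below the guide. Efnb2 (-0.44), Lif (-0.24), Ptgs2 (-0.19) and Nr4a2 (-0.10) fell; the Nr4a2 call was lost without KO188 replicate 2, WT replicate 1 or WT replicate 3 (adjusted p = 0.0559 to 0.072).

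On the estrogen list 4 of 25 genes rose and 4 fell, with a median of -0.03. Hsd17b11 (0.59), Cyp1b1 (0.51), which encodes an estrogen-hydroxylating enzyme, and the estrogen-responsive gene Greb1 (0.49) rose, as did the coactivator gene Ncoa3. Hsd17b7 (-0.83), which serves both estradiol and cholesterol synthesis, Hsd17b4 (-0.56), Hsd17b10 (-0.19) and Hsd17b12 (-0.12) fell. Dropping KO188 replicate 2 or any single WT array ended the Hsd17b12 call (adjusted p = 0.0543 to 0.0978), as did quantile normalization (0.118). Greb1 averaged 6.38 in WT, below the guide. Esr2, the other estrogen receptor gene, averaged 6.59 in KO188 and 6.64 in WT, and Pgr, a classical estrogen target, 6.10 in KO188 and 6.16 in WT; both were below the guide on all arrays.

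Of 28 other hormone receptor genes 5 rose and 2 fell, a share of 25%, near the 29.8% of all genes: Thrb (0.44), Ghr (0.41), Fgfr1 (0.34), Igf1r (0.27) and Rara (0.21) rose, and Adipor2 (-0.20) and Adipor1 (-0.15) fell. Thrb was below the guide in WT, at 6.38, and the Adipor2 call ended without WT replicate 3 (adjusted p = 0.0515). Nr3c1, the glucocorticoid receptor gene, averaged 10.29 in KO188 and 10.32 in WT (adjusted p = 0.730).

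The families of RANKL and osteoprotegerin were read in the same way. Of 15 other TNF superfamily ligand genes 2 rose, Tnfsf10 and Tnfsf15 (0.27), and 0 fell by limma, with 0 lower also at an unadjusted p under 0.05. The Tnfsf15 call was lost when KO188 replicate 3, WT replicate 1 or WT replicate 3 was dropped (adjusted p = 0.0553 to 0.0604), which left 1 higher call on the list, and without WT replicate 1 there was 1 lower call. Of 26 other TNF receptor superfamily genes 3 rose, Tnfrsf14 (0.89), Tnfrsf1b (0.39) and Tnfrsf12a (0.09), and 7 fell, among them Tnfrsf9 (-0.66), Tnfrsf22 (-0.49) and Tnfrsf21 (-0.46). The Tnfrsf12a call was lost without any 1 of the arrays except KO188 replicate 1 (adjusted p = 0.0562 to 0.0992) and with median centring (0.237). The difference of 0.94 for Tnfrsf11b lay above the highest of the 26, that of Tnfrsf14.

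Genes with the most similar profiles were found by the Euclidean distance between values centred on each gene's mean over the 6 arrays. Nearest to Tnfrsf11b were Spry1 (distance 0.0692), Serpina3n (0.0787) and Hgf (0.0849), which differed by 0.98, 0.97 and 0.95 on the log2 scale. The WT level of Serpina3n, 6.62, was below the guide, so its difference is inexact. Nearest to Esr1 were Pltp (0.0222), Ghr (0.0291) and Sfxn2 (0.0292). Nearest to Vdr were Ece1 (0.031), Antxr1 (0.0324) and Stk40 (0.0326), and nearest to Csf1 were Mysm1 (0.0195), Cacna1b (0.0216) and Sufu (0.0236). The calls of those 3 were not stable when single arrays were dropped: Mysm1 lost its call without any WT array (adjusted p = 0.0547 to 0.0798), Cacna1b without WT replicate 1 or 2 (0.0522 to 0.0586) and Sufu without any array other than KO188 replicate 2 (0.0642 to 0.0901). All 3 calls also ended with median centring, where the adjusted p was 0.186 for Mysm1 and 0.244 for Sufu, and those of Mysm1 and Cacna1b with quantile normalization, where it was 0.223 for Cacna1b. With 6 arrays in 2 groups, such distances mostly reflect the size of the group difference.

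The cells behind these signals were read from marker genes. Osteoblast markers rose in 7 of 11 and fell in 1, led by Alpl (2.08), the alkaline phosphatase gene, and Omd (1.597); the mean level of the list ran from 9.73 to 9.77 over the KO188 arrays and from 9.24 to 9.25 over the WT arrays. Of these 11, Sp7, the gene of the commitment factor osterix, and Ibsp, Dmp1 and Phex, which mark later osteoblasts or osteocytes, had 6-array means below the guide, while Alpl was well above it on every array. The 1 that fell was Phex (-0.16), a call that was lost when KO188 replicate 1, KO188 replicate 3, WT replicate 1 or WT replicate 2 was dropped (adjusted p = 0.102 to 0.129). Stromal progenitor markers rose in 6 of 11, led by Pdgfra (0.87), and 1 fell, Nt5e (-0.85). Of 9 adipocyte markers Lpl rose (0.54) and Pparg (-1.86) and Fabp4 (-0.33) fell. The part of these shifts in the changes of the 7 genes was not tested.

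Markers of macrophages and osteoclasts, the lineage that receives these signals, were read too. Of 18 macrophage markers 13 had means below the guide, Csf1r, Adgre1, Ptprc, Itgam and Mpeg1 among them. By limma 1 rose, Mpeg1 (1.32), and 0 fell. The 6-array mean of Mpeg1 was below the guide, so the size of its difference is inexact. At an unadjusted p under 0.05 the counts were 2 higher and 2 lower, and without KO188 replicate 1 there was 1 lower call. The list mean ran from 6.56 to 6.68 over the KO188 arrays and from 6.56 to 6.58 over the WT arrays. Of 15 osteoclast markers 3 rose, Tcirg1 (1.05), Ctsk (0.88) and Clcn7 (0.35), genes that other cells also use, and 4, Calcr, Dcstamp, Atp6v0d2 and Car2, had means below the guide; the list mean ran from 7.70 to 7.78 over KO188 and from 7.58 to 7.61 over WT. Of 10 granulocyte and 10 lymphocyte markers 0 passed by limma, with 0 also at an unadjusted p under 0.05; without KO188 replicate 2 or 3 there were 2 and 1 lower lymphocyte calls. The part of these cells in the results above was not tested. Of 10 endothelial markers 5 had means at or below the guide, and 1 rose, Kdr (0.24), itself among those 5. That call ended without any WT array or without KO188 replicate 1 (limma adjusted p = 0.0514 to 0.079).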

How the data were processed

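RNA from 6 BMSC samples was read on 1 Affymetrix array each. The authors' deposited table holds log2 values of 35556 probe sets; RMA, Affymetrix Expression Console and Partek are named, per the submitters' processing notes, with no role or order. A genome build is not stated there. RMA equalises array distributions and compresses dim values. Groups came from sample titles. Of the probe sets, 21789 carry 1 gene symbol in GEO's platform annotation; the one with the highest 6-array mean stood for each gene, which left 19938 genes, with no filter on dim values. KO188 minus WT was fitted in R 4.3.3 by lmFit and eBayes of limma 3.58.1, with no covariate. P-values were adjusted by Benjamini-Hochberg over the 19938 genes, with a threshold of 0.05. The procedure was tested on simulated data. The members and gene lists were chosen with earlier results of these data known. Named genes are the 7 members, up to 4 called genes per list by size of change, and 3 profile neighbours of each called member; further list genes, the level guide and the motifs were chosen after values were seen. Alternatives covered scaling, dim genes, probe sets, variance models, the replicate number as a block, equal values and leaving out each array. Promoter and microRNA sequences are RefSeq's. Figures used matplotlib 3.10.9.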

Additional observations from a re-analysis of the deposited data

How the results depend on the processing

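The calls of Tnfrsf11b (log2 difference 0.90 to 0.98), Vdr (0.24 to 0.32) and Esr1 (0.34 to 0.42) held under every alternative run for them, 15, 15 and 14 in number. Csf1 stayed higher but missed the threshold with median centring (0.069), with the replicate block (0.11, adjusted p = 0.0812) and in 3 of 6 fits with 1 array left out (0.10 to 0.13 over the 6). Il34 was -0.11 to -0.06 with 1 array left out and passed with median centring (-0.13), quantile normalization (-0.14) and the genes below the median level left out (-0.090), each of which made 1 of the 7 genes lower in place of 0; the last tests fewer genes. Tnfsf11 turned to -0.014 with median centring and -0.035 with quantile normalization, and ran from -0.040 (without KO188 replicate 2) to 0.11 with 1 array left out; Pth1r ran from -0.053 to 0.056 there, above 0 without KO188 replicate 1 (0.056), WT replicate 2 (0.0097) or WT replicate 3 (0.030). Tnfsf11 minus Tnfrsf11b shifted by -1.02 to -0.81 with 1 array left out and by -0.98 with quantile normalization. Over all genes, 2643 were higher and 3294 lower; with median centring 2007 and 4505. Deviations of same-numbered arrays from their group means had correlations of 0.018, 0.01 and -0.028. KO188 replicates 1 and 2 correlated best with the WT array of their own number, and KO188 replicate 3 did not. So few arrays cannot settle whether the numbers mark a shared preparation, and the samples were not treated as pairs. With the replicate numbers as a block, 2271 genes were higher and 2748 lower, and 52 and 34 of the 243 list genes in place of 61 and 41. Of the list genes and profile neighbours named above, Traf2, Adam17, Ncoa3, Nr4a2, Hsd17b12, Tnfrsf12a, Ptger4, Il6st, Kdr, Mysm1, Cacna1b and Sufu then missed the threshold. The cause of the other changed calls was not tested. Signal near the level of silent genes limits Pth1r and the dim list genes.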

Other observations

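Of the tested genes 26.5% (5285) hold the same deposited value on 2 or more arrays of a group, Esr1 and Pth1r among them, and Tnfsf11 has the same value, 8.17, on KO188 replicate 3 and WT replicate 3. The effect of equal values on the spread was not tested. With all such genes left out, an alternative chosen after the data were seen, 2448 of 14653 genes were higher and 3054 lower, and the calls of Tnfrsf11b, Csf1 and Vdr held.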
